A study of Drosophila melanogaster with 2 samples.

Results

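The proteasome subunit genes of Drosophila melanogaster were taken as the protein-coding genes whose symbols begin with Prosalpha, Prosbeta, Rpn or Rpt followed by a digit. That rule gave 48 of 13968 protein-coding genes on the chromosome arms. Of the 48, 32 carry a plain subunit number and are called canonical here, and 16 carry a letter after the number (T or R) and are duplicate genes. The core particle accounted for 25 genes, 14 canonical and 11 duplicate, and the regulatory particle for 23, 18 canonical and 5 duplicate. Binding of CG8281 to the genome was mapped with ChIP-seq, in which chromatin bound by a protein is pulled down with an antibody and sequenced. The material was whole embryos aged 0 to 20 hours of a stable transgenic line with CG8281 fused C-terminally to green fluorescent protein (GFP), and an anti-GFP antibody was used. All samples belong to 1 group, with biological replicates 1 and 2, so samples could not be tested against another condition. Whole embryos mix all cell types, so binding in few cells and weak binding in many cells cannot be told apart.

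The proteasome is the large protease that degrades proteins marked with ubiquitin. Its core particle is a barrel of stacked rings: the outer alpha rings control entry, and the inner beta rings hold the catalytic sites. The regulatory particle caps the barrel; ubiquitin receptors catch the substrate, the lid removes the ubiquitin, and the ATPases of the base unfold the chain and feed it into the core. Subunits are needed in every cell, and in flies and mammals the transcription factors related to Cnc (Nrf in mammals) are known to raise the expression of many subunit genes at once.

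The sequences under the summits show what stretch of DNA each peak of interest sat on. A summit is the base at which the authors' peak caller placed the top of a peak. The stretches below run 5′ to 3′ on the plus strand of dm6, within 60 bases of a summit and outside annotated UTRs and coding sequence. The 11 capitals mark the summit and its flanking bases. The first 3 belong to lid genes: the optimal summit at Rpn5 (chr3R:5789176-5789296, in an intron of Hat1), the pooled summit at Rpn11 (chr2L:5059865-5059985) and the summit of replicate 1 at Rpn3 (chr2L:19051691-19051789). The fourth is the summit of replicate 2 at the alpha ring gene Prosalpha4 (chrX:16276181-16276260). The last 3 lie between genes. All 4 stretches hold more A and T than G and C, with a GC content of 27.3% at Rpn5, 25.6% at Rpn11, 28.3% at Rpn3 and 30% at Prosalpha4. These are examples, and the strongest peaks of the set, at Prosalpha7 and Prosbeta5, are not among them. The stretch at the duplicate gene Prosbeta2R1 had 45.5%. Promoters of all protein-coding genes had a median of 38.0%, so more A and T than G and C does not mark these peaks.
Rpn5 optimal summit: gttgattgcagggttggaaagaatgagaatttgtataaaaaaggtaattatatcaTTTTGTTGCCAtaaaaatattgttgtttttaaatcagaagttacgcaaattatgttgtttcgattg
Rpn11 pooled summit: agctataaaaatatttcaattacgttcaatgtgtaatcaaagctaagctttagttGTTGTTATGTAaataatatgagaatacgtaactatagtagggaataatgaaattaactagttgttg
Rpn3 replicate 1 summit: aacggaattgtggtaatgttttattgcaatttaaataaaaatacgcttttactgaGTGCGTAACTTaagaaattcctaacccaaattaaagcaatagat
Prosalpha4 replicate 2 summit: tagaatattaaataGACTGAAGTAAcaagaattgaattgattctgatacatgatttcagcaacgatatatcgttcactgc

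A second set shows the motif, of the 6 searched, found in the largest number of canonical promoters, 12 of 32. The window ran from 250 bases before to 50 after the TSS, and 6 of the 12 genes are shown. Each stretch of 28 bases is from the plus strand of dm6 and holds TATCGATA in capitals. This is the core of the DNA replication-related element (DRE), known in flies from the promoters of growth and housekeeping genes, and it reads the same on both strands. The sites shown lie at Prosalpha6 (chr2L:10221325-10221352), Prosbeta2 (chr3L:14999931-14999958), Prosbeta6 (chr3L:16610445-16610472), Rpn3 (chr2L:19051583-19051610), Rpn9 (chr3R:23733419-23733446) and Rpt5 (chr3R:23752820-23752847).
Prosalpha6: ccgaatccctTATCGATAcccgatacac
Prosbeta2: catgaatataTATCGATAcaatatcgat
Prosbeta6: gcttaaacgtTATCGATAggtatacata
Rpn3: gttatcggagTATCGATAtcgaaaaggc
Rpn9: tccgcgagaaTATCGATAtttaaccggg
Rpt5: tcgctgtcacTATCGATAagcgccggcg

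The peak lists came in 4 forms, all on dm6. Each replicate had its own list of 30000 peaks, a pooled list of 30000 peaks came from both replicates together, and the optimal list held 3921 peaks. These 3921 were the strongest peaks of the pooled list, with the same positions and signals. A rank is the place of a peak in its own list by the authors' signal value, with 1 the strongest. How the signal was scaled was not given in the sources used here, so signals are not compared between lists. The depth of each library is unknown, and the exact 95% intervals cover the counting error of genes only. The peak at the promoter of CG8281 itself ranked 1 in all 4 lists. Bound means here that an optimal summit and an annotated transcription start site (TSS) of the gene were no more than 500 bp apart.

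Few proteasome subunit genes were bound. An optimal summit lay at 3 of the 48 genes, 6.25% (exact interval 1.31 to 17.2%), beside 12.2% of all protein-coding genes. The 3 were Prosalpha7 of the outer alpha ring, Prosbeta5 of the catalytic beta ring and Rpn5 of the lid. All 3 are canonical, so 3 of the 32 canonical genes were bound, 9.38%, and 0 of the 16 duplicate genes, with an exact upper limit of 20.6%. The interval for the 48 genes includes the share of all genes, and 3 bound genes are too few to place the set above or below it. Without replicate 2, the 3921 strongest peaks of replicate 1 lay at 6 of the 48 genes (Prosalpha3, Prosalpha7, Prosbeta5, Rpn3, Rpn5 and Rpn11). Without replicate 1, those of replicate 2 again lay at 3 genes, with Rpn10 in place of Rpn5.

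The core and the regulatory particle were not separated by these counts. Among canonical genes, 2 of 14 core genes were bound, 14.3% (1.78 to 42.8%), and 1 of 18 regulatory genes, 5.56% (0.141 to 27.3%). With the duplicates included the counts were 2 of 25 for the core and 1 of 23 for the regulatory particle. Without replicate 2 the counts were 3 of 25 and 3 of 23. The intervals overlap over most of their length. Genes are not independent replicates, and no test was made of this difference.

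Weaker peaks also lay at fewer subunit genes than the background would give. A pooled summit of any rank lay at 7 of the 48 genes, 14.6% (6.07 to 27.8%), beside 36.3% of all genes. Replicate 1 had a summit at 14 genes, 29.2%, beside 41.2% of all genes, and replicate 2 at 11 genes, 22.9%, beside 33.8% of all genes. Summits of both replicates lay at 5 genes, 10.4% (3.47 to 22.7%), beside 23.7% of all genes, and a summit of either replicate at 20 genes, 41.7% (27.6 to 56.8%), beside 51.3% of all genes. No list had a summit at 28 of the 48 genes, 58.3% (43.2 to 72.4%), beside 47.2% of all genes. The members' share was thus below the background in each of the 4 lists. The interval excluded the background only for the pooled list and for both replicates together. For the canonical genes alone, these 2 intervals were 7.21 to 36.4% and 5.28 to 32.8%, and both included the background. Genes are not independent replicates, and no test was made.

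Most genes with a weaker peak were canonical. Of the 32 canonical genes, 6 had a pooled summit, 12 a summit in replicate 1, 10 a summit in replicate 2 and 5 in both replicates. The canonical shares of 37.5% in replicate 1 and 31.25% in replicate 2 lay close to the background. The 18.8% of the pooled list (7.21 to 36.4%) lay below the 36.3% of all genes, which its interval just includes. Of the 16 duplicate genes, 1 had a pooled summit, 2 a summit in replicate 1, 1 a summit in replicate 2 and none in both. In all, 13 of the 16 duplicates, 81.3%, had no summit in any list, against 15 of the 32 canonical genes, 46.9%. The 92 cytosolic ribosomal protein genes, another set of housekeeping genes chosen by symbol, lay far from both classes, with a pooled summit at 72 of them, 78.3%. The 73 mitochondrial ribosomal protein genes, with 31 at 42.5% (31.0 to 54.6%), lay above the canonical subunit genes and nearest to the 36.3% of all genes.

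**Figure D1:**
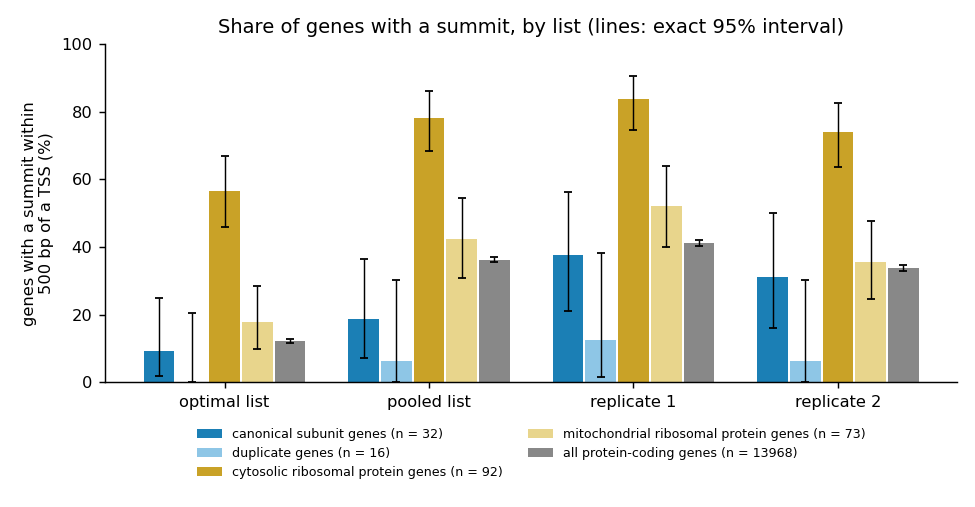
Bars give the percentage of genes with a summit within 500 bp of a TSS in each of the 4 lists, for canonical and duplicate proteasome subunit genes, cytosolic and mitochondrial ribosomal protein genes and all protein-coding genes, with exact 95% intervals as lines. The canonical genes reach 9.38% in the optimal list and 37.5% in replicate 1, and the duplicates stay at or below 12.5% in all 4 lists.

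Prosalpha7 (FBgn0023175), which encodes an alpha ring subunit, had by far the strongest peak of the set. The gene lies on the minus strand of chromosome arm 2R from 9846636 to 9847836. Its peak ranked 58 in the optimal and pooled lists with a signal of 3168.73, 51 in replicate 1 with 1527.67 and 70 in replicate 2 with 1662.42. The optimal peak spans 9847670 to 9848157 and peaks 45 bp upstream of the TSS. The summit of replicate 1 fell on the same base, and that of replicate 2 lay 9 bp away. Position and rank therefore agreed closely between the replicates at this gene.

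Prosbeta5 (FBgn0029134), which encodes the subunit with the chymotrypsin-like activity, also had a peak in both replicates. The gene lies on the plus strand of 2R from 10819978 to 10821178. Its peak ranked 292 in the optimal and pooled lists with a signal of 913.8, 351 in replicate 1 with 387.2 and 255 in replicate 2 with 525.1. The optimal peak spans 10819637 to 10820034, with its summit 157 bp upstream of the TSS and the replicates' summits 8 bp apart. The summit does not lie between the genes but in the 5′ UTR of the neighbour dgo, a planar cell polarity gene, 63 bp downstream of its TSS.

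Rpn5 (FBgn0028690), which encodes a scaffolding subunit of the lid, had a peak in replicate 1 only. The gene lies on the plus strand of 3R from 5789493 to 5791569. Its peak ranked 2500 in the optimal and pooled lists with a signal of 177.5, and 1476 in replicate 1 with 133.8. Replicate 2 had no summit within 500 bp of the Rpn5 TSS, and its nearest lay 2284 bp downstream. By comparison, 87.3% of the 1708 bound genes had a summit in replicate 2 and 99.1% one in replicate 1. The optimal peak spans 5789034 to 5789437, with its summit 257 bp upstream of Rpn5 and 148 bp downstream of the TSS of Hat1, a histone acetyltransferase gene, in a Hat1 intron. A second pooled peak ranked 6484, with a signal of 80.9 and its summit 58 bp upstream of Rpn5, between the genes.

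The 3 bound genes share a layout: each has a divergent promoter, as do 21 of the 32 canonical genes. The layout is not independent of the rule, since the 500 bp window also takes in summits at a neighbour's TSS. A promoter is called divergent where a gene on the opposite strand starts upstream within 500 bp. The TSS of CG1671 lies 225 bp from that of Prosalpha7, the TSS of dgo 94 bp from that of Prosbeta5 and the TSS of Hat1 109 bp from that of Rpn5. Each of these summits is within 500 bp of both genes, so the same peak counts for both. The summit was nearer to the subunit gene at Prosalpha7, and nearer to the neighbour at Prosbeta5 and Rpn5. Counting a summit only for the gene of its nearest TSS left Prosalpha7 alone, 1 of 48, while 9.33% of all genes remained bound. Among all bound genes, 405 of 1708, or 23.7%, likewise had another gene's TSS nearer to the summit. Which of the paired genes a peak acts on was not tested.

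**Figure D2:**
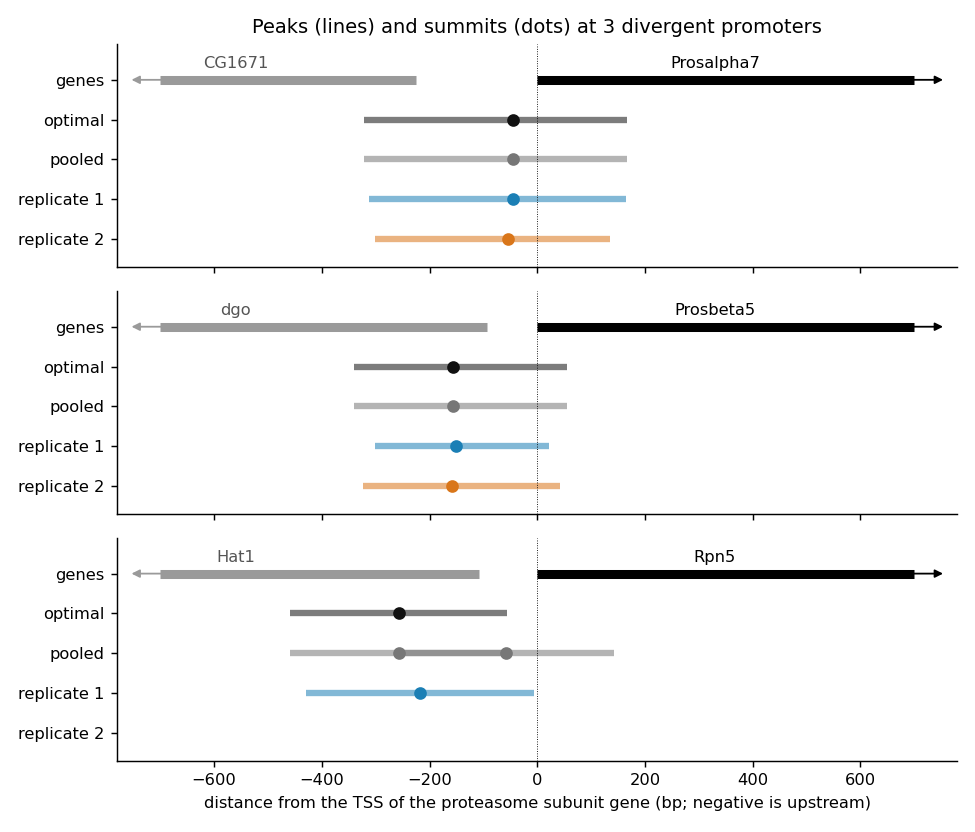
Horizontal lines are peaks and dots their summits in the optimal, pooled and replicate lists, plotted by distance in bp from the TSS of Prosalpha7, Prosbeta5 and Rpn5, with the start of each gene and of its divergent neighbour drawn on top. The 4 summits at Prosalpha7 sit 45 to 54 bp upstream of it, those at Prosbeta5 lie inside dgo, and the Rpn5 panel has no dot for replicate 2.

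Divergent promoters were common in the set as a whole. Such a neighbour lay at 27.3% of all genes, 39.1% of cytosolic and 72.6% of mitochondrial ribosomal protein genes. Of the 48 genes, 24 had one, 50%. The canonical genes made up most of these, with 21 of 32, 65.6%, against 3 of the 16 duplicates, 18.8%. The gap between the paired TSSs of canonical genes was 42 to 417 bp, with a median of 230 bp. Divergent genes were more often bound in the genome at large, at 846 of 3815, 22.2%, against 862 of 10153 others, 8.49%. The rule favours this, since 1 summit can count for both paired genes. Within the divergent stratum, 3 of 24 members were bound, 12.5%, and within the other stratum 0 of 24. The members' shares were below those of all genes in both strata, but with 24 members in each they are imprecise. Of the 24 pairs, member and neighbour had the same status in all pairs of the optimal and pooled lists. In 21 pairs of the optimal list and 20 of the pooled list, neither gene had a summit. The agreement is largely set by the rule, since the 500 bp windows of paired TSSs overlap. In replicate 1 Prosbeta4 had a summit without its neighbour, and in replicate 2 the neighbour of Prosalpha6 had one without the subunit gene.

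A gene with several TSSs has several windows in which a summit can fall. Of the 48 genes, 36 have a single annotated TSS, 75%, beside 73.5% of all genes. Among single-TSS genes, 3 of 36 members were bound, 8.33%, beside 8.61% of all such genes. Among genes with several TSSs, 0 of 12 members were bound, beside 22.3% of all such genes. Where a gene had both a single TSS and a divergent neighbour, 3 of 16 members were bound, 18.8%, beside 479 of 2632 of all such genes, 18.2%.

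Alpha ring genes held 2 further members with peaks in the weaker lists. Prosalpha3 (2R, 20994900 to 20996118) ranked 6150 in the pooled list with a signal of 84.2, its summit 202 bp upstream. In replicate 1 it ranked 3579 with a signal of 62.6, 78 bp upstream, and replicate 2 had no summit within 500 bp. Prosalpha4 (X, 16276270 to 16277587) had no pooled summit but one in each replicate. Its ranks were 10893 with a signal of 25.7 in replicate 1 and 5686 with 55.8 in replicate 2. These summits lay 66 bp apart and both were nearer to kat80, the gene of a katanin subunit, whose TSS lies 90 bp away. The other 4 canonical alpha ring genes, Prosalpha1, Prosalpha2, Prosalpha5 and Prosalpha6, had no summit in any list.

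Beta ring genes other than Prosbeta5 had only low-ranked peaks in 1 replicate. Prosbeta6 ranked 12464 in replicate 2, with its summit 21 bp downstream of the TSS. Prosbeta2, the gene of the trypsin-like subunit, ranked 29057 in replicate 2, at a summit 34 bp inside the divergent gene mRpL39. Prosbeta4 ranked 21691 in replicate 1, at a summit 474 bp downstream in its own coding sequence. Prosbeta1, the gene of the caspase-like subunit, Prosbeta3 and Prosbeta7 had no summit in any list. The catalytic subunit genes thus ranged from rank 292 in the pooled list at Prosbeta5 to none at Prosbeta1.

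Of the 6 canonical Rpt genes, which encode the ATPase ring of the base, 5 had no summit in any list, 83.3% (35.9 to 99.6%), beside 47.2% of all genes, which lies within that interval. The sixth, Rpt4, had one in replicate 1, at rank 26253 and 376 bp upstream, inside the coding sequence of the neighbour mldr. Both scaffold genes of the base, Rpn1 and Rpn2, had no summit in any list. The duplicate ATPase genes are given with the other duplicates.

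Both canonical ubiquitin receptor genes had a summit in a replicate, beside 51.3% of all genes, and neither had one in the optimal list. The duplicate gene Rpn13R had no summit in any list. Rpn13 (2R, 13958545 to 13960404) had peaks in both replicates and in the pooled list. Its rank was 6866 in the pooled list with a signal of 77.3, 16824 in replicate 1 with 20.2 and 5949 in replicate 2 with 54.0, at summits 59 to 68 bp upstream. Rpn10 (3L, 21537000 to 21538582) ranked 2499 in replicate 2 with a signal of 99.8, its summit 16 bp downstream of a TSS. The nearest summit of replicate 1 to Rpn10 lay 822 bp downstream at rank 9958, outside the window.

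Of the 8 canonical lid genes, 7 had a summit in a replicate, 87.5% (47.3 to 99.7%), beside 51.3% of all genes, which lies within that interval. Replicate 1 had a summit at 5 of the 8 and replicate 2 at 3, with 1 gene in both. That gene was Rpn11 (2L, 5058404 to 5059790), which encodes the deubiquitinating metalloprotease of the lid. Its pooled peaks ranked 5044 with a signal of 98.9 and 7691 with 70.7, at 135 and 337 bp upstream. Replicate 1 placed its stronger peak at rank 3237, with a signal of 67.9 and 127 bp upstream. Replicate 2 had rank 9633 with a signal of 39.3 and 331 bp upstream, 204 bp from the stronger summit of replicate 1 but on the same base as its weaker peak, which ranked 10885.

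The other lid genes had a summit in 1 replicate only or in none. In replicate 1, Rpn3 ranked 3675 with a signal of 61.2 at 39 bp upstream, Rpn12 ranked 4764 with 48.7 at 79 bp upstream, and Rpn8, the catalytically inactive partner of Rpn11, ranked 6584 with 37.0. In replicate 2, Rpn9 ranked 18753 and Rpn7 ranked 24921. Rpn6 had no summit in any list. None of these genes had a summit of both replicates within 500 bp.

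The duplicate genes, several of which are known from the testis, showed 3 weak cases. Rpt6R, the duplicate of an ATPase gene, had a pooled peak at rank 16204 with a signal of 40.03, 20 bp downstream of its TSS, and rank 14057 in replicate 2. In replicate 1, Prosbeta5R2 ranked 13950 at a summit in its own coding sequence and Prosbeta2R1 ranked 28420. The parent gene Prosbeta5 ranked 351 in that replicate.

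**Figure D3:**
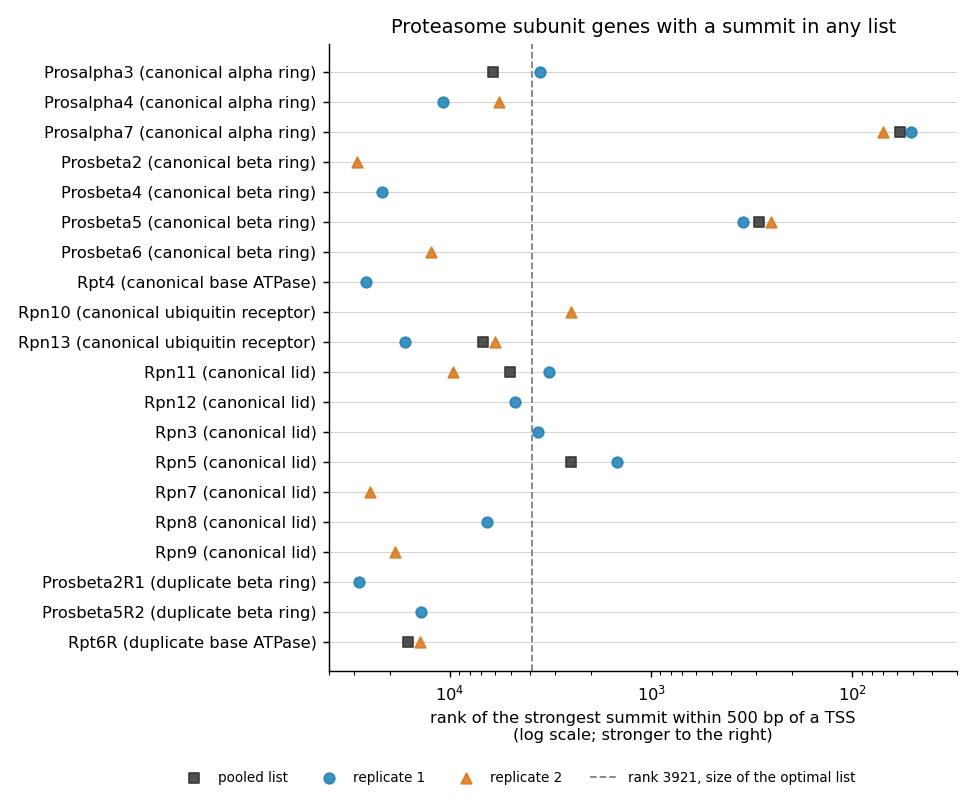
Each line is 1 of the 20 genes with a summit within 500 bp of a TSS in any list, and the points give the rank of the strongest such summit in the pooled list and in each replicate, on a log axis with stronger peaks to the right. Prosalpha7 and Prosbeta5 lie far to the right with all 3 points together, Rpn5 has no point for replicate 2, and no other gene has more than 1 point to the right of the dashed line at rank 3921.

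Summits of both replicates lay at 5 of the 20 genes with a summit in a replicate, and at 3306 of 7163 such genes in the whole annotation. Replicate 1 alone had a summit at 9 members and replicate 2 alone at 6, so in both sets a summit was more often found in 1 replicate than in both. Of the 5 shared genes, the summits lay within 9 bp of each other at Prosalpha7, Prosbeta5 and Rpn13. They lay 66 bp apart at Prosalpha4 and 204 bp apart at Rpn11. The 7 genes with a pooled summit had a median rank of 5044, beside 7022 for all 5066 such genes, a description of genes already chosen for having a peak.

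Beyond the window, the nearest optimal summit was often several kilobases away. The distance from a TSS had a median of 8488 bp over the 48 genes and ran from 45 to 157610 bp, beside a median of 10418 bp for all genes. The median was 5680 bp for canonical genes, 17510 bp for duplicates and 93 bp for cytosolic ribosomal protein genes. An optimal summit lay within 2000 bp of 6 of the 48 genes, 12.5%, beside 19.4% of all genes. The 3 between 500 and 2000 bp all belonged to other genes by distance. The summit 1482 bp upstream of Rpn12 (rank 2630, signal 171) lay 1 bp from the TSS of Smn, a gene needed for the assembly of splicing particles. The summit 1598 bp upstream of Rpn11 (rank 3023, signal 152.5) lay in an intron of qtc, and the one 1942 bp upstream of Prosbeta6 (rank 2460, signal 180.3) lay 126 bp upstream of CG4101. At the edge of the window, the optimal summit farthest inside was that of Rpn5 at 257 bp and the nearest outside that of Rpn12 at 1482 bp. In replicate 1 these were Prosbeta4 at 474 bp and Rpt5 at 509 bp.

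**Figure D4:**
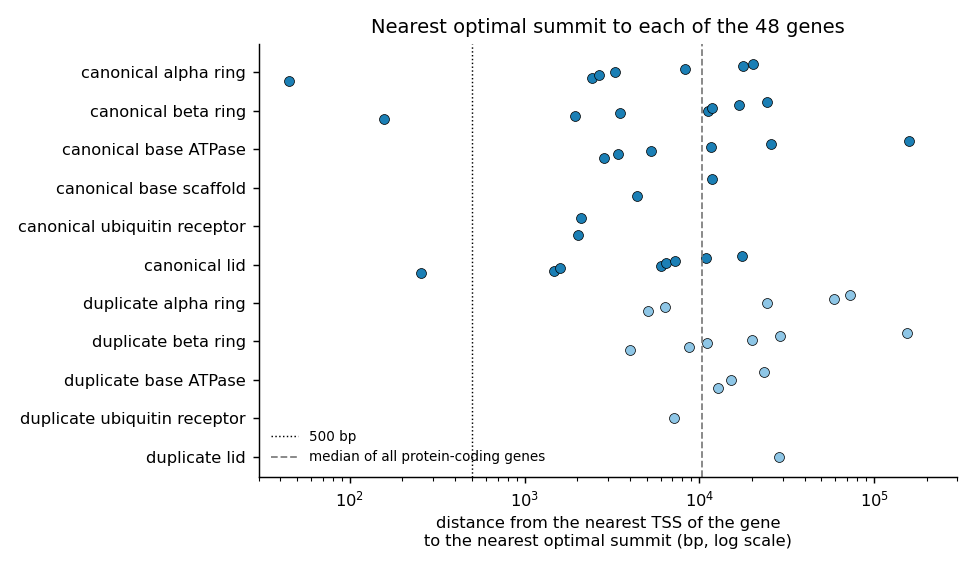
Points give the distance from the nearest TSS of each of the 48 genes to the nearest optimal summit, in bp on a log axis, by subunit class, with the 500 bp window dotted and the median of all protein-coding genes, 10418 bp, dashed. The 3 points left of the window line are Prosalpha7, Prosbeta5 and Rpn5, and the duplicate genes lie at 3998 bp or more.

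The promoters of many canonical genes held a motif found at no duplicate gene in the narrower window searched. Motifs were searched on both strands from 250 bases before to 50 after the 5′-most TSS, and a match is a run of letters, not a site. TATCGATA lay in 12 of the 32 canonical promoters, 37.5% (21.1 to 56.3%), and in 0 of the 16 duplicate promoters, beside 9.36% of all genes. The upper limit for the duplicates, 20.6%, lies above the share of all genes. Within 500 bases either side of the TSS, the counts were 14 of 32 canonical genes and 1 of 16 duplicates. In the narrower window, cytosolic ribosomal protein genes had 28 of 92, 30.4%. The 12 were split evenly between the particles, 6 in the core and 6 in the regulatory particle. The centres of the matches lay between 213 bp upstream and 30 bp downstream of the TSS, with a median position of -41.5 bp, upstream of it. No bound member had the motif: of the 12 genes, 0 had an optimal summit, 2 a pooled summit and 8 a summit in either replicate. Of the 36 genes without it, the counts were 3, 5 and 12. These 36 include all 16 duplicates, of which 3 had a summit in either replicate. The contrast therefore mixes the motif with the split between canonical and duplicate genes. In the genome at large, 15.8% of the 1307 genes with TATCGATA were bound and 11.9% of those without. The shares with a pooled summit were 38.9% and 36.0%, and with a summit in either replicate 56.0% and 50.8%. The 3 bound members are too few to read anything from their lack of the motif.

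The core of the motif of M1BP, a factor known from fly ribosomal protein promoters, was the other motif found in canonical promoters alone. GGTCACAC lay in 5 of the 32 canonical promoters, 15.6% (5.28 to 32.8%), and in 0 of the 16 duplicates (upper limit 20.6%), beside 7.69% of all genes. Both intervals include the share of all genes. The matches shown are at Prosalpha2 (chr3R:12431328-12431355, plus strand), Prosalpha4 (chrX:16276293-16276320, plus strand), Prosbeta3 (chr3R:9006425-9006452, minus strand) and Rpn1 (chr3L:19915040-19915067, plus strand), with the motif in capitals and each stretch written 5′ to 3′ on its strand in dm6. All 5 matches, Rpn7 included, were followed by TG. None of the 5 genes had a pooled summit, beside 438 of all 1074 genes with GGTCACAC, 40.8%. A summit of either replicate lay at 2 of the 5, beside 59.6% of all such genes. With 5 genes, these shares are imprecise.
Prosalpha2: ttcagcattcGGTCACACtgccgcccaa
Prosalpha4: cccatgctgcGGTCACACtgcggcattt
Prosbeta3: gacgcggcctGGTCACACtgaaagctaa
Rpn1: ttcgccgcgcGGTCACACtgcaaaaagc

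In the same window, the interval of the antioxidant response element core included the background. The antioxidant response element core TGACNNNGC, the kind of site bound by Cnc with its partner Maf-S, lay in 6 of the 48 promoters, 12.5% (4.73 to 25.2%), beside 8.62% of all genes. Of the 32 canonical promoters 5 held it, 15.6% (5.28 to 32.8%). Within 500 bases either side of the TSS it lay in 19 of the 48 genes, 39.6% (25.8 to 54.7%), beside 27.2% of all genes. That interval includes the background. For the canonical genes alone the wider window gave 15 of 32, 46.9% (29.1 to 65.3%), an interval that excludes it. The E-box CACGTG lay in 0 of 48, with an upper limit of 7.40%, beside 4.20%, and the E-box CAGCTG in 2, 4.17%, beside 17.6%. GAGAG, a purine repeat bound by the GAGA factor, lay in 3 of the 32 canonical promoters, 9.38%, and in 6 of the 16 duplicates, 37.5%, beside 29.7% of all genes. The members' promoters were also richer in A and T, with a median GC content of 33.2%, beside 38.0% for all genes and 37.3% for bound genes. The part of base composition in the motif shares was not tested.

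**Figure D5:**
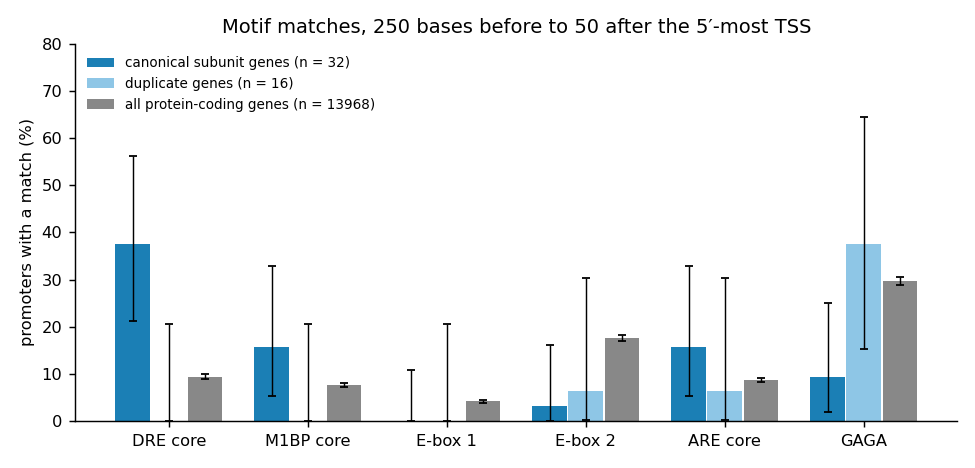
Bars give the percentage of promoters with each motif for canonical subunit genes, duplicate genes and all protein-coding genes, with exact 95% intervals as lines. The motifs stand in the order TATCGATA (DRE core), GGTCACAC (M1BP core), CACGTG and CAGCTG (E-boxes), TGACNNNGC (ARE core) and GAGAG (shown as GAGA), and the DRE bar of the canonical genes stands at 37.5% against 9.36% for all genes.

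Genes that act with the proteasome were bound in 4 of 20 cases, 20% (5.73 to 43.7%), beside 12.2% of all genes. The list named 22 genes of the ubiquitin-proteasome pathway, of which 20 matched by symbol. The bound ones were cnc, Pomp, RpS27A and Ubi-p63E. Summits of both replicates lay at 6 of the 20, beside 23.7% of all genes. Those with no summit in any list were maf-S, REG, Uch-L5, TER94, Uba1 and Pngl, among them the genes of the partner of Cnc, a proteasome activator and the ubiquitin-activating enzyme. The interval spans the background, so the share does not set the pathway apart.

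The strongest of these peaks lay in cnc (FBgn0262975; 3R, 23185580 to 23226711), the fly gene of the Nrf type of transcription factor. With 10 annotated TSSs, cnc has more windows than most genes. Its strongest peak ranked 155 in the optimal list with a signal of 1510.65, 193 in replicate 1 with 578.9 and 147 in replicate 2 with 922.4. That summit lay in an intron, 456 bp downstream of the nearest cnc TSS. A second optimal peak, of rank 1241 and signal 314.8, lay 71 bp upstream of another cnc TSS, also in an intron. Both peaks were present in both replicates.

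The cnc summits are shown because they are the strongest in the pathway list. The first stretch (chr3R:23189903-23190023, plus strand of dm6) has 11 capitals at the summit. In the second (chr3R:23193291-23193411, plus strand) the capitals mark the word ACTGACTG, part of a longer tandem repeat. This word was picked after the data were seen, for its frequency at optimal summits, so its share there is not independent evidence. It lay within 60 bases of 207 of 3921 optimal summits, 5.28%, beside 0.332% and 0.587% of the places 700 bp to either side. It was at 0 of the 3 optimal summits of proteasome subunit genes and at 0 of the 39 summits listed for them in any list, counting the optimal peaks again in the pooled list. At a share of 5.28%, 0 of 3 says little. The share at weaker summits of all genes was not counted, so nothing is read from the 39.
cnc strongest summit: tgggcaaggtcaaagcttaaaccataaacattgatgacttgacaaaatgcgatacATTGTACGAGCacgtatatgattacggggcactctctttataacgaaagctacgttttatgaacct
cnc second summit: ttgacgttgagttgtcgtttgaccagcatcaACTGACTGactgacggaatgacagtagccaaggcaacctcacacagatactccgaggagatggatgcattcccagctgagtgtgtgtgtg

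The other 3 bound pathway genes ranked far lower. Pomp, the gene of the chaperone that matures the core particle, ranked 2178 in the optimal list with a signal of 199.2, 2964 in replicate 1 and 2268 in replicate 2, with its summit 233 bp upstream. RpS27A, which encodes ubiquitin fused to a ribosomal protein, ranked 2065 with a signal of 208.2, 1569 in replicate 1 and 2727 in replicate 2, 44 bp upstream. Ubi-p63E, a polyubiquitin gene, ranked 2906 with a signal of 157.4, 1695 in replicate 1 and 4894 in replicate 2, 139 bp downstream of a TSS in an intron. The optimal summits of Pomp (chr2L:20787363-20787483) and RpS27A (chr2L:10408248-10408351) are shown on the plus strand of dm6, with the 11 bases at the summit in capitals, as the assembly and ubiquitin genes beside the subunit genes.
Pomp optimal summit: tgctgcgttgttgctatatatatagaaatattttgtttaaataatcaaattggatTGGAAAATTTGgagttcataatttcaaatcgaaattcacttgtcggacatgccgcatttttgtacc
RpS27A optimal summit: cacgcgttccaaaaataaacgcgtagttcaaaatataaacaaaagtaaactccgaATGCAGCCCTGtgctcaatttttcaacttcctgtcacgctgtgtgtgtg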

How the data were processed

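ChIP-seq of CG8281-GFP was done by the authors in whole embryos, per the labels, with sonicated chromatin and 2 biological replicates of 1 group. The deposited lists are narrowPeak tables on dm6: 1 per replicate, 1 pooled and 1 optimal list by the irreproducible discovery rate, per the file headers. The deposited columns are the authors' signal value, the −log10 of the q value and the offset of the summit. Signal was used only as a rank within a list, and q was not used. The aligner, the caller and its cutoffs were not given in the sources used here. Alignments and the control were not analysed here, so depth is unknown.

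Summits were assigned to every gene with a TSS within 500 bp (Ensembl release 115, the 7 chromosome arms), with sequence from the RefSeq genome of the same assembly. The assignment was tested on simulated data. Shares carry exact Clopper-Pearson 95% intervals. Figures used Matplotlib 3.10.9, and intervals SciPy 1.17.1, with pandas 2.3.3 and NumPy 2.4.6 in Python 3.11.15. No test was made: members and gene lists were chosen with earlier results of these data known, and counts stand beside all protein-coding genes.

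Named by rule were bound members, members with a pooled summit, members with an optimal summit 500 to 2000 bp away or with a replicate rank within 3921, bound pathway genes, nearer neighbours and CG8281. Other members were named to account for them, after their values were seen. Alternatives were other windows, TSS sets, peak numbers, single replicates, interval overlap, nearest TSS only and a wider motif window.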

Additional observations from a re-analysis of the deposited data

How the results depend on the processing

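Of 83 alternative values, 61 stayed within 1.5 times the reported count, or for shares and ranks within the spread between replicates, and 22 moved. No duplicate gene was bound under any alternative, and Prosalpha7 was bound under all of them. Each replicate's own 3921 strongest peaks gave 3 to 6 members, all canonical, 2 to 3 core genes, 1 to 3 regulatory genes, 3 to 4 pathway genes and 10.2 to 14.2% of all genes. Without replicate 2 the regulatory genes were Rpn3, Rpn5 and Rpn11, and without replicate 1 only Rpn10, so the identity of the bound regulatory gene rests on the replicate. With 7842 pooled peaks, 6 members (6 canonical, 3 regulatory) and 19.4% of all genes were bound. With the nearest TSS only, 1 member, 1 canonical, 1 core and 0 regulatory genes and 9.33% of all genes were bound, and 3 members had a summit in both replicates. With the stronger 1960 optimal peaks, 0 regulatory genes, 1 pathway gene (cnc) and 6.76% of all genes were bound. With a window of 250 bp, 0 regulatory genes and 9.13% of all genes were bound. Within 500 bases of the TSS, 6 members held CACGTG (12.5%, beside 12.9% of all genes), 12 CAGCTG (25%, beside 42.0%), 19 TGACNNNGC (39.6%, beside 27.2%) and 33 GAGAG (68.75%, beside 66.7%). The causes were not tested, beyond the larger or smaller number of peaks or bases searched. With only the 5′-most TSS, cnc was not counted as bound. Matching Ufd1-like and KCMF1 as Ufd1 and Kcmf1, chosen after the data were seen, gave 4 of 22 pathway genes. No paired analysis was possible because there is 1 group. Depth is unknown, and 3 bound genes limit the precision of the members' share.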
